A study of Mus musculus with 74 samples.

Results

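Neurons sorted from L4 dorsal root ganglia (DRG) 3 days after sciatic nerve injury (SNI) were compared directly with those sorted 1 day after it. All sorted-neuron mice whose sample titles give SNI and either day were taken, which were 8 of the 30 mice in the series (4 per day) and 24 of its 74 samples. The paper gives fewer mice per SNI group after outlier samples were removed, and the labels do not say which mice those were. The study sorted DRG neurons that ascend the spinal cord and asked how their transcriptome responds to SNI and to spinal cord injury (SCI). Both groups, SNI 1d and SNI 3d, were female mice of the strain Thy1YFP16 aged 10 to 20 weeks, with a crush of the sciatic nerve as the only injury. The genotype entry in the labels carries a different YFP number for each well, and the strain name is used here. In these mice the Thy1 promoter drives YFP, mostly in sensory neurons of large diameter. Ganglia were dissociated with papain and collagenase and filtered at 70 µm before YFP-positive cells were sorted, and dissociation severs the axons of every neuron on both days. Each mouse gave 3 wells of about 100 cells, which were summed because the mouse is the replicate. The first pair of mice in each group comes from the set titled FACS (mice 1 and 2) and the other pair from the set titled FACS2018 (mice 3 and 4).

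A crushed peripheral axon sends signals back to the cell body, where transcription factors such as ATF3, Jun and Sox11 are induced and a program of axon regrowth begins. Growing axons need membrane lipids, tubulin and motor proteins that carry cargo to the growth cone, while channels and transmission genes of the mature neuron are known to be reduced after nerve injury. Comparing both days after the same injury asks how this response develops as regrowth gets under way.

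Reads counted on genes were 45078523, 35712007, 79826087 and 30518187 in the SNI 1d mice and 43070113, 47514171, 58410701 and 66829030 in the SNI 3d mice. Between 15192 and 21646 genes were detected per mouse. The label of sorted neurons was checked against marker genes in each well. All 10 pan-neuronal markers had reads in all 8 mice, and they took 2.92%, 3.17%, 2.32% and 3.80% of reads on genes in the SNI 1d mice and 3.88%, 3.76%, 1.31% and 3.86% in the SNI 3d mice. SNI 3d mouse 3 stood below all the others. The 16 markers of satellite glia and Schwann cells took 1.83%, 2.07%, 4.18% and 0.73% at 1d and 1.45%, 0.65%, 9.59% and 0.96% at 3d. Pmp22, which encodes a protein of peripheral myelin, had more of these reads than any other of the 16 genes in every mouse, and each of the 16 genes had at least 1 read in every mouse.

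The glial reads came from some of the wells. In 7 of the 24 wells, 3 at SNI 1d and 4 at SNI 3d, reads on the glial markers exceeded those on the neuronal markers. In these glia-rich wells the glial share was 4.56% to 16.8% (median 9.51%) and the neuronal share 0.013% to 2.17%. In the other 17 wells the glial share was 0.36% to 1.68% and the neuronal share 2.02% to 4.46%. In 5 of the glia-rich wells the neuronal share was 0.0134% to 0.572%, which goes against their label of sorted neurons. In the remaining pair, both of SNI 3d mouse 3, it was 2.17% and 1.80%, near the 2.02% of the lowest other well, so these hold reads of both kinds. SNI 1d mice 1, 2 and 3 and SNI 3d mouse 1 had 1 such well each, and all 3 wells of SNI 3d mouse 3 were glia-rich. Most results are therefore given with all wells and without the glia-rich wells, where 4 SNI 1d mice and 3 SNI 3d mice are left. In the wells that are left the satellite glia share had a mean of 0.0993% at 1d and 0.0470% at 3d, without overlap between the mice. Wells were left out by markers that include these, so no test of that share is given, and its part in the values without the glia-rich wells was not tested. In a sorted well, fewer cells of a type and less RNA per cell cannot be told apart.

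**Figure D1:**
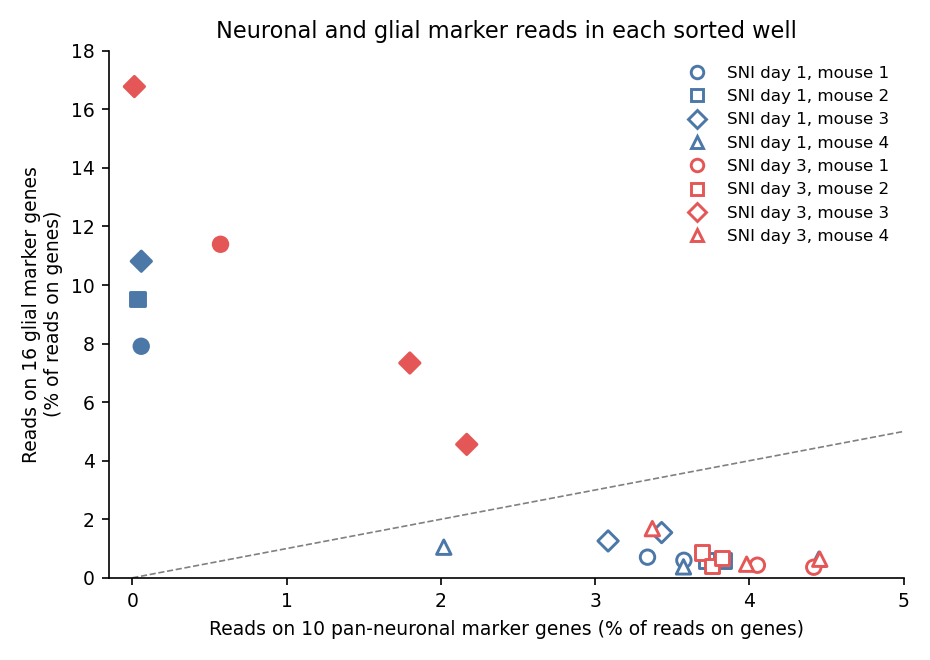
Percent of reads on genes that fell on 10 pan-neuronal markers (x axis) and on 16 glial markers (y axis) in each of the 24 wells, with blue for SNI 1d, red for SNI 3d and one symbol shape per mouse number. Filled symbols are the 7 wells above the dashed line of equal shares, with glial shares of 4.56% to 16.8%, and all 3 wells of SNI 3d mouse 3 are among them.

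Other cell types were traced by their own markers. Macrophage markers took 0.994% of reads in SNI 1d mouse 3, most of them on the antigen presentation gene Cd74, and 0.0459% or less in the other 7 mice. Nociceptor markers took 0.913% in SNI 1d mouse 4, nearly all on Calca, which encodes the peptide CGRP, and 0.0504% or less elsewhere. Fibroblast markers took 0.00356% to 0.0854%. Endothelial markers reached 0.0101% and red blood cell markers 0.000351%, while T cell markers reached 0.000669% and neutrophil markers 6.04e-05%. The neutrophil genes S100a8, S100a9 and Csf3r had no read in any of the 8 mice. For these shares p was 0.257 or higher between the days (exact permutation test, two-sided, where the smallest possible p with 4 against 4 mice is 0.0286).

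With all wells, sorted cells of SNI 3d mice, mouse 3 with only glia-rich wells among them, had more transcripts of the amino acid transporter Slc6a15, of the cholesterol enzyme Hsd17b7, of the fatty acid synthase Fasn and of the axotomy-induced gene Sprr1a than those of SNI 1d mice, without overlap. They had less of Ypel5, a ubiquitin ligase subunit, and of the respiratory chain genes Ndufa12 and Ndufb5, again without overlap. None of these 7 genes passed edgeR's test over all genes, while by DESeq2 Slc6a15 (adjusted p = 0.0166) and Ypel5 (adjusted p = 0.0049) did and the other 5 did not, and without the glia-rich wells the groups of Sprr1a overlapped. Scaled to library totals in place of TMM, those of Hsd17b7, Fasn and Ndufa12 overlapped. Over all genes tested 1.09% lay above and 0.898% below without overlap, and of 454 genes taken as lists 3 lay above and 3 below. Levels are CPM, a gene's reads relative to the TMM-scaled reads of its mouse, and log2 fold changes are SNI 3d over SNI 1d from edgeR's quasi-likelihood F-test with 2 RUVr factors, which are estimates of unwanted variation taken from the residuals of a first fit. The test covered the 23507 genes that reached 20 reads in 1 or more mice, and a gene is called differentially expressed (DE) at a Benjamini-Hochberg adjusted p under 0.1, the threshold of the study.

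By this test 0 genes (0% of those tested) were DE higher at 3d and 1 gene (0.00425%) was DE lower. At an unadjusted p under 0.05 there were 439 higher genes (1.87%) and 1900 lower genes (8.08%). DESeq2, with the same factors, called 949 genes, 266 higher and 683 lower. With the glia-rich wells left out edgeR called 0 genes in either direction, with 1014 higher (4.48% of 22620) and 824 lower (3.64%) at an unadjusted p under 0.05. The median log2 fold change over all genes was -0.21 with all wells, -0.03 without the glia-rich wells and 0.04 without the RUVr factors. Spread between mice was wide, with a biological coefficient of variation of 1.20 and a median standard error of 1.21 on the log2 scale. A p that misses the threshold therefore does not show that a gene kept its level.

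The gene called lower was Chrnb4, which encodes a subunit of the nicotinic acetylcholine receptor and falls outside the rule for named genes, so it was singled out after its values were seen. It had 0, 0, 1 and 181 reads in the SNI 1d mice and 0 reads in each SNI 3d mouse. The call rests on SNI 1d mouse 4, which is also the mouse with the nociceptor transcripts, and the other SNI 1d mice were at or near 0. Against a floor of 3 reads over the SNI 3d group, which covers counting error only, the reads pooled over the group relative to library totals, without TMM scaling, were at least 68.5-fold lower (adjusted p = 0.088 in edgeR's test). It was called when SNI 1d mouse 1 was left out, but not when any other of the 8 mice was, nor without the glia-rich wells (adjusted p = 0.604).

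For 257 genes (1.09% of those tested) all 4 SNI 3d mice lay above all 4 SNI 1d mice, and for 211 genes (0.898%) all lay below. Scaled to library totals in place of TMM, these counts were 231 and 237, so the balance of the directions depends on the scaling. Of the 70 groupings of 4 against 4 mice, 2 are fully apart in this way, counting both directions. With 4 against 3 mice, leaving out the glia-rich wells, 768 genes (3.27%) lay above and 632 (2.69%) below, and 121 and 163 of the genes with all wells were among them in the same direction. Of the groupings of 4 against 3 mice, a fraction of 0.0286 is fully apart in each direction. The counts with fewer mice therefore cannot be set against those with all wells. Of the genes apart with all wells, the 12 of smallest p in each direction were named, among those that had at least 20 reads in at least 4 mice and a gene name. They were chosen for not overlapping, so their direction is a description. All 24 had an adjusted p of 0.386 to 0.474 in edgeR's test, and of 1.5e-06 (Prkcq) to 0.0829 (Map4) in DESeq2's. DESeq2 was run on the same counts and factors by which the 24 were chosen, so its values for them are no separate test.

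Of the 12 named genes higher at 3d, the smallest p belonged to Slc6a15 (ENSMUSG00000019894.14, chromosome 10, 103367783 to 103419377 in GRCm38 (mm10), GENCODE vM21), a transporter of neutral amino acids found mainly in neurons. Slc6a15 stood at 147, 180, 202 and 129 CPM in the SNI 1d mice and at 525, 291, 630 and 453 CPM in the SNI 3d mice. The lowest SNI 3d mouse was above the highest SNI 1d mouse, with or without SNI 3d mouse 3. The SNI 1d mean was 164 ± 33.0 CPM and the SNI 3d mean 475 ± 142 CPM (SD, n = 4), and edgeR's log2 fold change was 1.55 (SE 0.42). The log2 ratio of the means was 1.32 within the FACS set and 1.71 within the FACS2018 set, with 2 against 2 mice in each. Without the glia-rich wells the fold change was again 1.55, with p = 4.87e-06 and an adjusted p of 0.11 in edgeR's test, just above the threshold. The 6 naive mice ranged from 39.5 to 241 CPM with a median of 186 CPM.

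Nckap1, part of the WAVE complex that drives actin branching, stood at 124, 151, 155 and 138 CPM at 1d and at 244, 257, 393 and 195 CPM at 3d. Map4, which binds and stabilizes microtubules, stood at 301, 314, 259 and 274 CPM at 1d and at 407, 438, 670 and 512 CPM at 3d. Mtss1, which bends membranes and binds actin, stood at 46.1, 24.1, 36.5 and 29.7 CPM at 1d and at 78.2, 61.1, 86.3 and 68.9 CPM at 3d. In each of these genes the groups were apart with all wells, and without the glia-rich wells those of Map4 and Mtss1 stayed apart while those of Nckap1 overlapped. Their log2 fold changes were 0.93, 0.81 and 1.17 with all wells and 0.49, 0.48 and 0.71 without the glia-rich wells.

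Usp5, which takes apart free ubiquitin chains, had a log2 fold change of 0.94 (0.88 without the glia-rich wells), and its groups overlapped when scaled to library totals. Ncstn, a subunit of gamma-secretase, had 1.11 (0.50), with 501 CPM in SNI 3d mouse 3 and 105 to 171 CPM in the other SNI 3d mice. Lpin1, which makes diacylglycerol for lipid synthesis, had 0.99 (0.56). Akap8, a nuclear anchor of protein kinase A, had 1.33 (0.96). Clcn5, a chloride and proton exchanger of endosomes, had 1.73 (1.71). Rasgef1b, an exchange factor for small GTPases, had 2.10 (2.05), and Sdk1, an adhesion molecule of synapses, had 3.09 (1.91). Among the SNI mice both had their highest level in SNI 3d mouse 3. Rasgef1b stood at 12.8 to 159 CPM at SNI 3d, at 0.302 to 199 CPM in the naive mice (median 5.91 CPM) and at 4.89 to 58.8 CPM in the SCI 1d mice. Lef1, a transcription factor of Wnt signaling, had 0 to 2 reads in the SNI 1d mice and 50 to 345 reads in the SNI 3d mice.

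Ypel5 (ENSMUSG00000039770.5, chromosome 17, 72836453 to 72851195), a subunit of a ubiquitin ligase complex, had the highest counts of the 12 named genes lower at 3d. It stood at 1313, 1080, 1474 and 1032 CPM in the SNI 1d mice and at 800, 624, 949 and 564 CPM in the SNI 3d mice. The highest SNI 3d mouse was the glia-rich mouse 3, and it still lay below the lowest SNI 1d mouse. The log2 fold change was -0.77 (SE 0.19), and the ratio of the means was -0.75 and -0.73 within the sets. It was -1.11 without the glia-rich wells, with an adjusted p of 0.21 in edgeR's test. In the 6 naive mice Ypel5 ranged from 636 to 811 CPM.

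Prkcq, which encodes a protein kinase C, had 309, 50, 661 and 28 reads in the SNI 1d mice and 0 reads in every SNI 3d mouse. The SNI 1d mice stood at 0.805 to 8.50 CPM, the naive mice at 0.0155 to 0.252 CPM and the SCI 1d mice at 0.431, 0, 0.021 and 1.61 CPM. Postn, which encodes the matrix protein periostin, Olfml3, a secreted glycoprotein, and Masp1, a protease of the complement system, act outside the cell. Postn stood at 29.6, 10.3, 40.4 and 0.862 CPM at 1d and at 0.0412, 0.548, 0.104 and 0.291 CPM at 3d. Olfml3 stood at 62.5, 3.39, 34.7 and 19.9 CPM at 1d and at 1.07, 0.124, 2.08 and 1.19 CPM at 3d. Both were highest in SNI 1d mice with a glia-rich well, and without those wells Olfml3 overlapped between the days and Postn did not. There the SNI 1d mice stood at 38.7, 13.3, 1.06 and 0.982 CPM of Postn and at 0.395, 4.39, 17.5 and 22.6 CPM of Olfml3. Postn thus stayed in the other wells of mice 1 and 2 and fell in mouse 3. Masp1 had a log2 fold change of -3.37 with all wells and -2.20 without the glia-rich wells.

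Prcd, a protein of photoreceptor discs, had 2.14 CPM or less in every mouse and a log2 fold change of -6.36 (-4.95 without the glia-rich wells). Ephb3, a receptor for ephrins, had 617, 20, 733 and 45 reads at 1d and 0, 17, 0 and 0 reads at 3d, and its groups overlapped without the glia-rich wells. Tbc1d25, a regulator of autophagy, had a log2 fold change of -3.72 with all wells and -2.25 without the glia-rich wells. The same values were -3.87 and -1.51 for Syt14, a synaptotagmin, -2.85 and -1.34 for the deubiquitinase Usp38, and -2.16 and -0.78 for Dirc2, a transporter of lysosomes. Olfr920, an olfactory receptor gene, had -3.21 and -1.57, and its counts are uncertain because the family has many close copies. In SNI 3d mouse 3 the counts of Tbc1d25, Syt14 and Olfr920 were 0, and Olfr920 and Dirc2 overlapped when scaled to library totals.

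**Figure D2:**
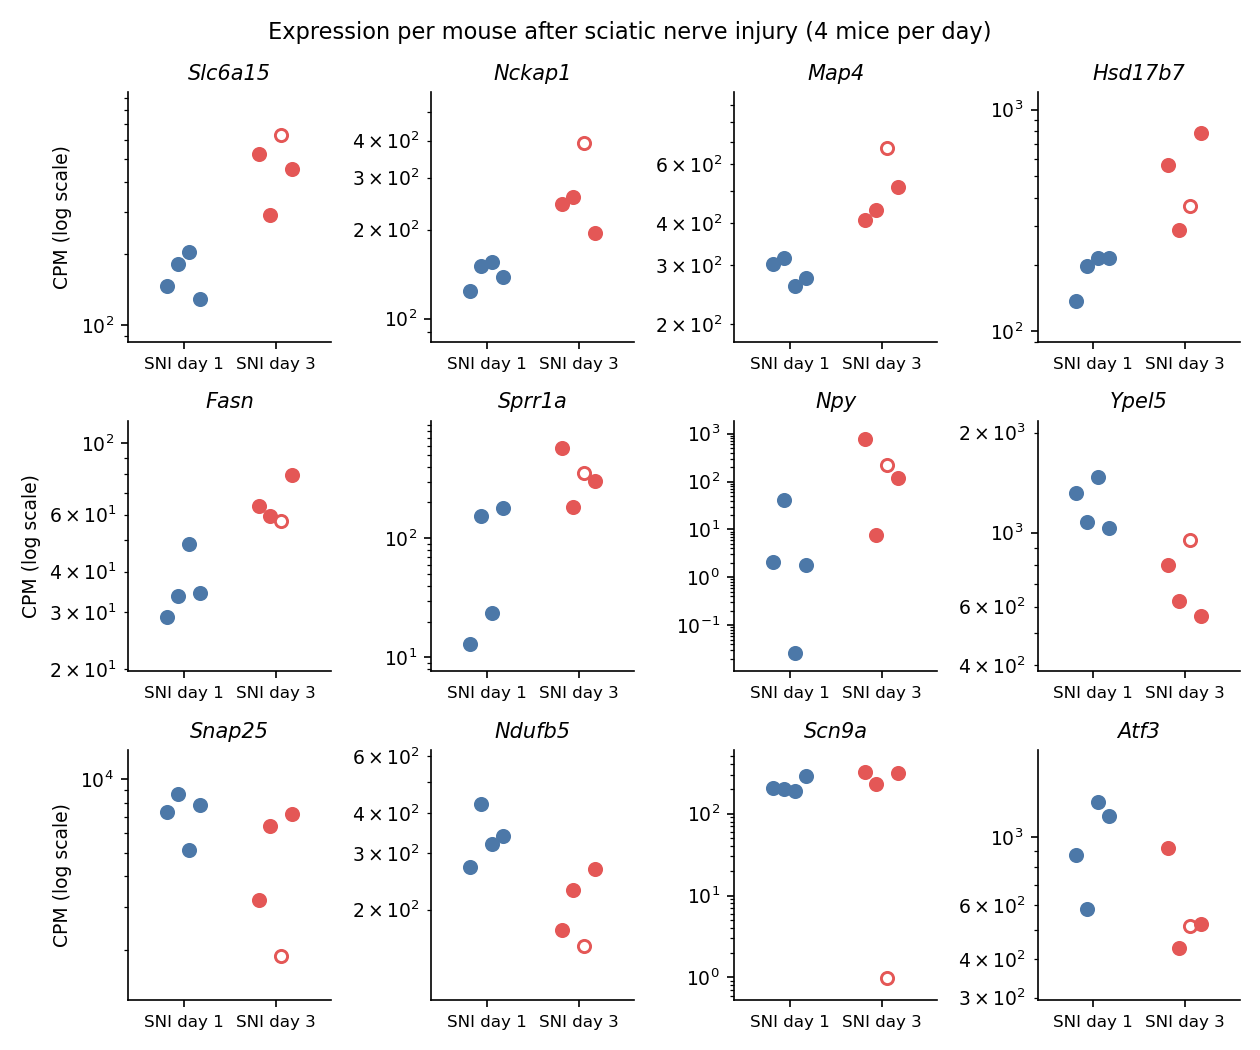
TMM-scaled CPM on a log axis in each of the 4 SNI 1d mice (blue) and 4 SNI 3d mice (red) for 12 genes, with mice 1 to 4 from left to right in each group and SNI 3d mouse 3, whose wells were all glia-rich, as an open symbol. The groups do not overlap for Slc6a15, Nckap1, Map4, Hsd17b7, Fasn, Sprr1a, Ypel5 and Ndufb5, and they overlap for Npy, Snap25, Scn9a and Atf3.

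Genes of the injury response were taken as lists, each described by its counts and its median log2 fold change beside those of all genes tested. With all wells, 9626 of the 23507 genes tested had a fold change above 0 and 13881 below it. The counts by direction in each list are to be read beside these. By edgeR's test none of the 454 listed genes was DE, beside 1 of 23507 genes, while DESeq2 called 3 of them higher and 7 lower, beside 266 and 683 of all genes. Without overlap 3 lay above and 3 below, beside 1.09% and 0.898% of all genes. Without the RUVr factors the list medians, beside 0.04 for all genes, were -0.04 for injury transcription factors, 0.35 for axotomy-induced genes, 0.23 for neurofilaments and tubulins, 0.17 for transport motors, 0.43 for cholesterol and 0.84 for fatty acid synthesis, -0.15 for channels, 0.12 for receptors, -0.13 for large-fibre genes, -0.02 for synaptic vesicle genes, -0.11 for the stress response, 0.02 for heat shock proteins and -0.15 for the nuclear respiratory chain. The 17 injury transcription factors had a median of -0.19 (-0.10 without the glia-rich wells), near the -0.21 and -0.03 of all genes. Atf3, induced by axon damage in most sensory neurons, stood at 874, 583, 1305 and 1174 CPM at 1d and at 923, 436, 512 and 524 CPM at 3d. SNI 3d mouse 1 was within the range of the SNI 1d mice and the other SNI 3d mice were below it (log2 fold change -0.72, SE 0.68, adjusted p = 0.78 in edgeR's test, and -0.82 without the glia-rich wells). Sox11 stood at 1034, 694, 1224 and 425 CPM at 1d and at 1046, 659, 258 and 625 CPM at 3d, with overlapping groups (log2 fold change -0.19, and -0.39 without the glia-rich wells). The fold changes of Jun, Smad1, Klf6 and Creb1 were -0.19, -0.03, -0.37 and -0.02, each less than its standard error (-0.06, 0.19, -0.50 and -0.10 without the glia-rich wells). Map3k12, the kinase that relays the axon injury signal, had -1.06 with all wells and 0.62 without the glia-rich wells. In those wells every SNI 3d mouse lay above every SNI 1d mouse, beside 3.27% of all genes. The exact permutation test, two-sided, on log2(CPM + 1) gave p = 0.143 there, or 0.610 adjusted over the 89 single values.

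The 23 axotomy-induced genes tested had a median of 0.02 (0.24 without the glia-rich wells). Sprr1a (ENSMUSG00000050359.7, chromosome 3, 92483952 to 92485895), a small proline-rich protein that promotes axon growth, stood at 12.96, 153, 23.7 and 178 CPM at 1d and at 571, 185, 353 and 301 CPM at 3d. SNI 3d mouse 2 was just above SNI 1d mouse 4, and without the glia-rich wells those mice, at 199 and 203 CPM, changed order. The exact permutation test, two-sided, on log2(CPM + 1) gave its smallest possible p of 0.0286, or 0.763 adjusted over the 89 single values compared. Naive mice had 0 to 12.9 CPM of Sprr1a. Npy, a neuropeptide that large sensory neurons make after axotomy, stood at 2.06, 40.7, 0.0257 and 1.78 CPM at 1d and at 783, 7.48, 218 and 116 CPM at 3d. SNI 3d mice 1, 3 and 4 were above every SNI 1d mouse and mouse 2 was not (log2 fold change 6.72, SE 2.73, adjusted p = 0.474 in edgeR's test and 0.0173 in DESeq2's), and without the glia-rich wells the fold change was 6.10. The neuropeptide Gal had no read in SNI 1d mouse 1 and 661 CPM in SNI 1d mouse 3 (log2 fold change -0.08, SE 2.42, and -1.11 without the glia-rich wells). With a mouse left out its fold change ranged from -1.28 to 4.98. Gap43, a growth cone protein, stood at 108, 364, 905 and 1396 CPM at 1d and at 2075, 963, 585 and 1053 CPM at 3d, with overlapping groups (log2 fold change 0.88, and 0.63 without the glia-rich wells).

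Of the 16 neurofilament and tubulin genes, 14 had a fold change above 0, with a median of 0.33 beside -0.21 for all genes. The median was 0.07 without the glia-rich wells. Tubb3, the neuronal beta tubulin, and Tubb5 were higher at an unadjusted p under 0.05 (2 of 16, beside 1.87% of all genes). Both were singled out after their values were seen. Without the glia-rich wells 2 of the 16 were higher at that p and 1 lower, beside 4.48% and 3.64% of all genes. The neurofilament genes Nefl, Nefm and Nefh had -0.13, 0.08 and -0.12, each less than its standard error, and -0.61, -0.22 and -0.24 without the glia-rich wells. For Nefl in those wells p was 0.0123 (adjusted p = 0.604 in edgeR's test) with overlapping groups, and with all wells the ratio of its means was -0.33 and -0.35 within the sets. Ina, which encodes internexin, stood at 32.6, 115, 89.8 and 78.6 CPM at 1d and at 222, 180, 3.35 and 208 CPM at 3d. The SNI 3d mice were above all SNI 1d mice except for the glia-rich mouse 3. Reads can be shared among close copies of tubulin genes. Stmn2, a tubulin-binding protein of growing axons, had 0.56 (SE 0.42, and 0.44 without the glia-rich wells), and the 15 axonal transport motors had a median of 0.20 (-0.04 without the glia-rich wells). None of the motors had an unadjusted p under 0.05 with all wells, beside 1.87% of all genes higher and 8.08% lower. Without the glia-rich wells 1 of 15 was higher at that p, beside 4.48% of all genes, and the same 1 lay above without overlap, beside 3.27%. It was Mapk8ip3 (p = 0.0326, adjusted p = 0.604 in edgeR's test), singled out after its values were seen.

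Of the 22 cholesterol synthesis genes, 18 had a fold change above 0 and the median was 0.38, and without the glia-rich wells it was 0.35 beside -0.03 for all genes. Leaving out only SNI 3d mouse 3 gave 0.15. They took 0.378%, 0.339%, 0.379% and 0.406% of reads at 1d and 0.456%, 0.375%, 0.565% and 0.561% at 3d. Only SNI 3d mouse 2 was inside the SNI 1d range (p = 0.114, exact permutation test, two-sided, 0.925 adjusted). The log2 ratio of the mean shares was 0.21 within the FACS set and 0.52 within the FACS2018 set. Hsd17b7 (ENSMUSG00000026675.12, chromosome 1, 169949535 to 169969241), a reductase of the later cholesterol pathway, stood at 137, 196, 214 and 215 CPM at 1d and at 562, 286, 369 and 786 CPM at 3d. All SNI 3d mice were above all SNI 1d mice, with and without the glia-rich wells, but not when scaled to library totals (log2 fold change 1.42, SE 0.53, adjusted p = 0.474 in edgeR's test), and the ratio of the means was 1.35 and 1.43 within the sets. Hmgcs1, which starts the pathway, had 2396 CPM in SNI 3d mouse 3 and 500 to 888 CPM in the other SNI 3d mice, against 358 to 574 CPM at 1d. In this list 4 genes, beside 3.27% of all genes, lay above at 3d without the glia-rich wells, namely Hmgcs1, Idi1, Hsd17b7 and Dhcr7. Of these, Idi1 and Dhcr7 were singled out after their values were seen. At an unadjusted p under 0.05 in the same wells, 1 of the 22 was higher, beside 4.48% of all genes, and none was lower, beside 3.64%.

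Of the 15 fatty acid synthesis genes, 12 had a fold change above 0, with a median of 0.34 (0.11 without the glia-rich wells and -0.05 without SNI 3d mouse 3, and 0.84 without the RUVr factors). Their share was 0.566% in SNI 3d mouse 3 and 0.177% to 0.248% in the other SNI 3d mice, and the log2 ratio of the mean shares was -0.08 within the FACS set and 1.05 within the FACS2018 set. Fasn (ENSMUSG00000025153.9, chromosome 11, 120805846 to 120824547), which makes palmitic acid, stood at 29.0, 33.7, 48.7 and 34.3 CPM at 1d and at 64.0, 59.3, 57.5 and 79.4 CPM at 3d. The groups were apart here and without the glia-rich wells, but overlapped when scaled to library totals (log2 fold change 0.85, SE 0.51, adjusted p = 0.587 in edgeR's test). Leaving out the glia-rich wells, Fasn stood at 37.8, 43.6, 35.3 and 39.1 CPM at 1d and at 47.1, 63.8 and 79.5 CPM at 3d. In those wells 2 of the 15 genes lay above, beside 3.27% of all genes. Naive mice ranged from 28.2 to 82.0 CPM. Acly, which supplies the acetyl units, stood at 225, 176, 299 and 374 CPM at 1d and at 423, 370, 337 and 694 CPM at 3d (log2 fold change 0.81, SE 0.34, and 0.77 without the glia-rich wells). Acaca, the next enzyme, had 0.51 (SE 0.54, and 0.30 without the glia-rich wells). Scd2, a desaturase that glia express strongly, stood at 3330 CPM in SNI 3d mouse 3 and at 278 to 627 CPM in the other mice, and its fold change of 0.47 was -0.15 without that mouse, 0.29 without the glia-rich wells and 1.28 without the RUVr factors.

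Of the 20 voltage-gated channel genes, 18 had a fold change below 0, beside 13881 of all 23507 genes. Their median was -0.92, but without the glia-rich wells the median was -0.14. Scn9a, which encodes the sodium channel Nav1.7, stood at 204, 200, 191 and 290 CPM at 1d and at 320, 229, 0.986 and 310 CPM at 3d. Scn8a, the channel of nodes of Ranvier, stood at 101, 139, 90.8 and 105 CPM at 1d and at 107, 147, 0.337 and 170 CPM at 3d. In both genes SNI 3d mouse 3 was close to 0 and the other SNI 3d mice were within or above the SNI 1d range. Leaving out the glia-rich wells gave fold changes of 0.13 for Scn9a and 0.10 for Scn8a, in place of -1.17 and -1.01. At an unadjusted p under 0.05 with all wells, 5 of the 20 were lower, beside 8.08% of all genes. Without the glia-rich wells 2 were lower at that p, beside 3.64%. Kcna4, Kcnq3 and Hcn2 were among the 5, and they were singled out after their values were seen.

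The 13 neurotrophin and cytokine receptor genes had a median of -0.25 (0.21 without the glia-rich wells). Ngfr, which encodes the receptor p75, had 0.389 CPM in SNI 3d mouse 3 and 92.8 to 122 CPM in the other SNI 3d mice, within the 47.1 to 197 CPM at 1d. Of the 15 large-fibre identity genes, 12 had a fold change below 0, with a median of -0.36 (-0.29 without the glia-rich wells). Pvalb, Runx3 and Etv1, genes of proprioceptors, had -0.11, -0.06 and 0.17, each less than its standard error (-0.29, 0.48 and 0.40 without the glia-rich wells). Without the glia-rich wells Ldhb, a lactate dehydrogenase, stood at 1386, 1702, 1726 and 1960 CPM at 1d and at 672, 995 and 894 CPM at 3d. Ntrk2, the receptor for BDNF, stood at 78.3, 43.0, 53.9 and 32.5 CPM at 1d and at 1.73, 21.7 and 12.3 CPM at 3d. Both were apart in these wells (2 of 15 genes below, beside 2.69% of all genes). With all wells SNI 3d mouse 3 had 2341 CPM of Ldhb and 686 CPM of Ntrk2 and the groups overlapped. Both genes were singled out after their values were seen.

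Of the 16 synaptic vesicle genes, 13 had a fold change below 0, with a median of -0.46 (-0.04 without the glia-rich wells). Snap25, which drives vesicle fusion, stood at 7359, 8695, 5146 and 7815 CPM at 1d and at 3186, 6431, 1882 and 7223 CPM at 3d. SNI 3d mice 1 and 3 were below every SNI 1d mouse and the others were not (log2 fold change -0.59, SE 0.24). Without the glia-rich wells every SNI 3d mouse, at 3662 to 7233 CPM, lay just below the lowest SNI 1d mouse, at 7362 CPM. Snap25 was the 1 of the 16 that lay below there, beside 2.69% of all genes (adjusted p = 0.604 in edgeR's test). The pan-neuronal markers as a list had a median of 0.03 (-0.23 without the glia-rich wells).

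Immediate early genes, which neurons and glia induce within minutes of a stimulus, differed widely between mice. The 13 genes took 0.252%, 0.154%, 0.636% and 0.0396% of reads at 1d and 0.0455%, 0.0635%, 0.817% and 0.0615% at 3d. SNI 1d mice 1, 2 and 3 and SNI 3d mouse 3 had the highest shares, and each had a glia-rich well. SNI 3d mouse 1 also had one, and its share was low. The log2 ratio of the mean shares was -1.90 within the FACS set and 0.38 within the FACS2018 set. The median fold change was -1.35, with 11 of 13 below 0, and it was -0.40 without the glia-rich wells and 0.43 without the RUVr factors. Fos stood at 1033, 684, 2904 and 152 CPM at 1d and at 134, 222, 5817 and 260 CPM at 3d, and without the glia-rich wells at 281, 104, 1031 and 173 CPM and at 141, 239 and 260 CPM. The groups overlapped with and without those wells.

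The 16 genes of the stress response to misfolded proteins had a median of -0.39 (-0.47 without the glia-rich wells), with 12 below 0. Hspa5, the chaperone BiP, was the 1 of the 16 lower at an unadjusted p under 0.05, beside 8.08% of all genes. Without the glia-rich wells Hspa5 stood at 654, 442, 684 and 404 CPM at 1d and at 374, 239 and 316 CPM at 3d, all lower. It was the 1 of the 16 that lay below there, beside 2.69% of all genes, and it was singled out after its values were seen. The 11 heat shock protein genes had a median of 0.07 (-0.15 without the glia-rich wells). Hsph1, a chaperone of the HSP110 family, stood at 110, 133, 142 and 110 CPM at 1d and at 104, 110, 5.34 and 69.8 CPM at 3d. The groups were just apart, and they overlapped without the glia-rich wells and when scaled to library totals. Hspa8 stood at 1199, 873, 1072 and 1164 CPM at 1d and at 796, 749, 766 and 1068 CPM at 3d, and its groups overlapped. Without the glia-rich wells it was the 1 of the 11 that lay below, beside 2.69% of all genes (adjusted p = 0.604 in edgeR's test). Hspa1a and Hspa1b are near-identical copies and their counts are uncertain.

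Of the 86 respiratory chain subunits encoded in the nucleus, 63 had a fold change below 0, with a median of -0.16 beside -0.21 for all genes, and 2 lay below without overlap, beside 0.898% of all genes. Over all genes 13881 of 23507 had a fold change below 0. Without the glia-rich wells the median was -0.32 beside -0.03, and 10 of 86 lay below and none above, beside 2.69% of all genes below. In the same wells 18 of the 86 were lower at an unadjusted p under 0.05 and none higher, beside 3.64% of all genes. The satellite glia share of these wells was also lower at 3d, as given above. Ndufb5 (ENSMUSG00000027673.12, chromosome 3, 32736990 to 32751566), a subunit of complex I, stood at 270, 426, 320 and 339 CPM at 1d and at 173, 231, 154 and 266 CPM at 3d. The highest SNI 3d mouse was just below the lowest SNI 1d mouse (log2 fold change -0.69, SE 0.30, adjusted p = 0.477 in edgeR's test), and the ratio of the means was -0.79 and -0.65 within the sets. Ndufa12 stood at 121, 125, 98.0 and 104 CPM at 1d and at 76.8, 88.1, 63.7 and 94.2 CPM at 3d. Its groups were also apart, but not when scaled to library totals. The other 8 genes that lay below without the glia-rich wells were Ndufa9, Ndufb9, Ndufb10, Ndufs8 and Ndufv2 of complex I and Atp5f1, Atp5h and Atp5o of the ATP synthase, with fold changes of -0.62 to -0.35, and they were singled out after their values were seen. In all 8 of them SNI 3d mouse 3 lay inside the SNI 1d range or above it with all wells.

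The share of all 87 subunits counted, 86 of them tested, was 2.52%, 3.15%, 1.77% and 3.01% at 1d and 2.19%, 2.69%, 1.83% and 2.17% at 3d. The groups overlapped (p = 0.343, exact permutation test, two-sided). The 81 cytosolic ribosomal protein genes had a median of -0.04 (-0.07 without the glia-rich wells), and the 7 mitochondrially encoded proteins tested had -0.0019 (-0.27). The 10 cell cycle genes had a median of -0.45 (-0.02 over 9 of them), and Mki67, Top2a and Ccnb1 had under 3 CPM in every mouse. Satellite glia markers had a median of -2.05 (-1.94) and Schwann cell markers -0.60 (-0.20), with all 6 and 9 of 10 below 0, while without the RUVr factors these medians were 0.86 and 1.14. The satellite glia share with all wells had a mean of 0.292% at 3d and 0.215% at 1d (p = 0.971, exact permutation test, two-sided), and without the glia-rich wells it was lower at 3d, at 0.0470% against 0.0993%. There Fabp7 and Kcnj10 (2 of 6 satellite glia markers) and S100b (1 of 10 Schwann cell markers) also lay below without overlap, beside 2.69% of all genes. They were singled out after their values were seen, and the wells were left out by markers that include them. The nociceptor markers had a median of -3.58 (-3.04), the macrophage markers -1.01 (-0.74, over 8 of the 11 genes) and the fibroblast markers -0.86 (-1.82). The log2 ratio of the mean nociceptor shares was 0.18 within the FACS set and -4.78 within the FACS2018 set. That set holds SNI 1d mouse 4, in which 1 well had 3.52% of its reads on these markers. The endothelial markers had -2.50 (-3.00) and red blood cell markers -0.83 (0.66), over 3 and 5 genes with all wells and 3 and 4 without the glia-rich wells. The endothelial share went the other way, with a mean of 0.00281% at 3d and 0.00116% at 1d (p = 0.686, exact permutation test, two-sided). With a mouse left out the red blood cell median ranged from -5.54 to 0.83. The neutrophil and T cell lists, with 3 and 2 genes tested, had 2.27 (3.08) and 0.75 (-0.05). Of these genes S100a8 had no read in any of the 8 mice and Cd3e had 1 read, in SNI 3d mouse 1, so neither median is read as a change. Without the RUVr factors the fibroblast median was 0.57 and the red blood cell median 0.47, both turned, and the macrophage median was -3.38. With a mouse left out the macrophage median ranged from -7.16 (SNI 3d mouse 4) to 1.39 (SNI 1d mouse 3).

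**Figure D3:**
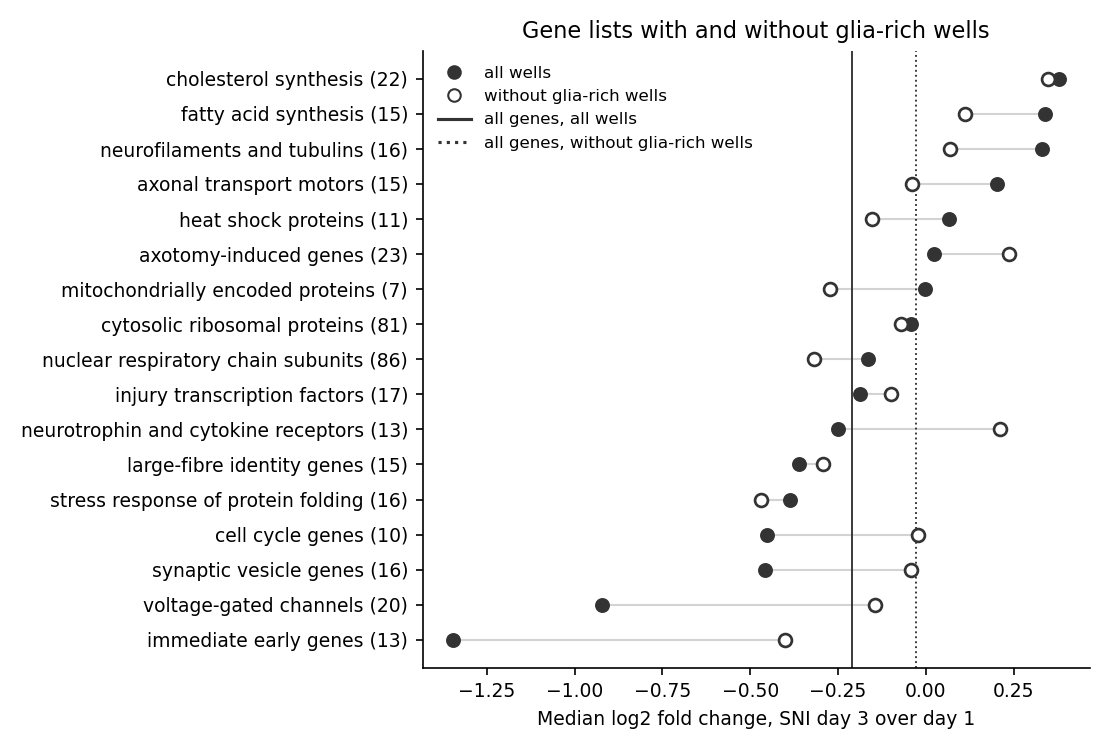
Median log2 fold change of SNI 3d over SNI 1d for each gene list, with the number of genes tested in brackets, with all wells (filled) and without the glia-rich wells (open). Vertical lines mark the medians over all genes tested, -0.21 with all wells and -0.03 without the glia-rich wells; the cholesterol list lies to the right (0.38 and 0.35), while voltage-gated channels go from -0.92 to -0.14.

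Whether the difference between the days belongs to SNI was tested against the same difference after SCI. This injury was a transverse cut of the dorsal column of the thoracic spinal cord, in mice of the same strain (4 mice at each day). By edgeR's test the difference was more positive after SNI for 0 genes (0%) and more negative for 0 genes (0%), with 1786 at an unadjusted p under 0.05 and a smallest adjusted p of 0.613. DESeq2 called 733. Glia-rich wells were 3 of 12 at SCI 1d, 4 of 12 at SCI 3d and 6 of 18 in naive mice, and without them edgeR again called 0 genes against SCI. Slc6a15 stood at 254, 154, 155 and 104 CPM in the SCI 1d mice and at 196, 173, 173 and 274 CPM in the SCI 3d mice. Its day difference after SNI exceeded that after SCI by 1.27 on the log2 scale (p = 0.043 and adjusted p = 0.65 in edgeR's test). For Fasn the excess was 1.09 (adjusted p = 0.81), with 9.01 to 51.6 CPM at SCI 1d and 11.4 to 36.5 CPM at SCI 3d. For Ypel5 it was -0.93 (adjusted p = 0.613), with 488 to 742 CPM and 637 to 773 CPM. For Hsd17b7, Ndufb5 and Ndufa12 it was 0.76, -0.57 and -0.36 (adjusted p = 0.927, 0.858 and 0.933 in edgeR's test). Sprr1a went the other way, at -5.90 (adjusted p = 0.638 in edgeR's test), so its fitted day difference was larger after SCI. It stood at 0.0238 to 0.165 CPM at SCI 1d and at 9.12, 0.0697, 1.17 and 150 CPM in the SCI 3d mice.

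The naive mice carry the same days in their labels, with 3 mice each, and the SNI difference was also set against theirs. By edgeR's test 0 genes (0%) differed in the higher direction and 3 (0.0128%) in the lower direction, with 398 and 2150 at an unadjusted p under 0.05. DESeq2 called 1767. The 3 genes were Ptgs2, which encodes COX-2, P2ry10, a receptor of immune cells, and Klrd1, a receptor of natural killer cells. Ptgs2 stood at 0, 0, 24.6 and 0.0575 CPM at SNI 1d and at 0 in every SNI 3d mouse, and at 0, 0 and 186 CPM in the naive mice of day 3 against 0 in those of day 1. P2ry10 and Klrd1 were high in the same 2 mice, with 14.1 and 10.7 CPM in SNI 1d mouse 3, the mouse with the macrophage transcripts, and 119 and 174 CPM in that naive mouse. The part of macrophage transcripts in the 3 calls was not tested. No gene was called in this comparison without SNI 1d mouse 1, 2 or 3, and 1 was called without SNI 1d mouse 4, 5 without SNI 3d mouse 1 and 9 without SNI 3d mouse 3. When the glia-rich wells were left out 724 genes were called, 309 higher and 415 lower, and without the RUVr factors as well 0 were called, so this count depends on both choices. For Slc6a15 the excess over the naive mice was 2.42 (adjusted p = 0.306 in edgeR's test with all wells).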

How the data were processed

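The authors deposited raw read counts per gene for each well, made with cutadapt, STAR 2.5.3a and HTSeq 0.6.1 on mm10; the strand setting is not given, and 5 closing lines per file were left out. Libraries were made with the SMARTer Ultra Low kit. Wells were summed per mouse. Of 53379 genes, the 23507 that reached 20 reads in 1 or more mice were tested on the 22 sorted-neuron mice with edgeR 4.0.16 (R 4.3.3, limma 3.58.1), TMM scaling and 2 RUVr factors, and with DESeq2 1.42.0. CPM are read counts over the TMM-scaled library size; log2 levels add 1 CPM. Wells held 46.1% to 66.9% of reads on no gene or not uniquely placed. Single values (89) were compared by exact permutation tests, two-sided, with Benjamini-Hochberg adjustment (scipy 1.17.1, numpy 2.4.6, pandas 2.3.3, Python 3.11.15, matplotlib 3.10.9). PCR reads are not independent molecules, so floors cover counting error only.

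Named genes were the 12 of smallest p in each direction whose groups did not overlap, among 12115 with at least 20 reads in at least 4 mice and a gene name; the first 4 of each pathway list and members that were DE or did not overlap; up to 4 DE genes of each comparison with SCI or naive mice; and 11 chosen injury genes. The members and lists were chosen with earlier results of these data known. The alternatives were other scalings, filters and factors, a replicate block, DESeq2, leaving out each mouse, and leaving out glia-rich wells. The authors' comparison tables, with fold changes and p-values, were not used. A few genes of the lists are not reported here, though they count in the tests, lists and totals.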

Additional observations from a re-analysis of the deposited data

Results flagged for a closer look

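Single mice stood far from the other 3 of their group in 37 of the values compared, of which 36 are given, where chance gives about 1 in 20 of the 178 groups tested. Most were in SNI 3d mouse 3, whose wells were all glia-rich.

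In SNI 3d mouse 3 the share of reads was 1.72% on neurofilaments and tubulins, 1.31% on pan-neuronal markers, 0.817% on immediate early genes, 0.908% on satellite glia markers, 8.68% on Schwann cell markers and 0.0101% on endothelial markers. On the scale of log2(CPM + 1), the same mouse was low for Ina (2.12), Ntrk3 (1.25), Scn1a (1.18), Scn8a (0.42), Scn9a (0.99), Ngfr (0.47), Gfra1 (1.32) and Map3k12 (0.11). It was also low for Hsph1 (2.67), Kif5a (6.54), Kif1a (8.64), Syt1 (0.42) and Syt2 (0.77), and high for Egr1 (9.45) and Top2a (0.21).

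Other SNI 3d mice that stood apart were mouse 1 for Gal (0.99) and mouse 4 for Mki67 (0.43) and Ccnb1 (1.47), on the same log2 scale. SNI 1d mouse 3 stood apart for macrophage markers (0.994% of reads) and endothelial markers (0.00367%), and for Gfra1 (9.01), Trib3 (2.14), Mki67 (1.67) and Map3k12 (3.80). SNI 1d mouse 4 stood apart for nociceptor markers (0.913%), Scn9a (8.18), Hspa1a (0.68) and Top2a (0.19). SNI 1d mouse 1 was the single SNI 1d mouse with reads on neutrophil markers (4.44e-06%), and SNI 1d mouse 2 had the most genes detected in its group (20679).

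The difference between the days after SNI and that between naive mice differed by edgeR's interaction test for Klrd1 (adjusted p = 0.0845), Ptgs2 (adjusted p = 0.0334) and P2ry10 (adjusted p = 0.0697).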

How the results depend on the processing

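The count of DE genes between SNI 3d and SNI 1d, 1 with the settings of the report, was 0 at an adjusted p under 0.05, with residuals not centred, with 1 or no RUVr factor, with the set as a covariate in place of RUVr factors, with a replicate block with or without RUVr factors, with DESeq2's size factors or library totals, with filterByExpr or no filter beyond 1 read, with only the 8 SNI mice and no RUVr factors, and without glia-rich wells with or without RUVr factors. The covariate and the 8 mice each change 2 choices together. Leaving out both glia-rich wells and RUVr factors was chosen after seeing the data. The count was 4, all lower, with naive mice split by day, 949 with DESeq2 (266 higher and 683 lower), and 0 to 2 when a mouse was left out, all lower. For the SNI difference against that of SCI, DESeq2 called 733 genes (273 higher and 460 lower), where edgeR called 0.

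For the SNI difference against that of naive mice, 3 genes in the report, the count was 1 at an adjusted p under 0.05 and with a replicate block and RUVr factors, all lower. It was 0 with residuals not centred, 1 or no RUVr factor, the set as a covariate in place of RUVr factors, a replicate block without RUVr factors, filterByExpr, and without both glia-rich wells and RUVr factors. It was 10, all lower, with library totals, 1767 with DESeq2 (281 higher and 1486 lower), 724 without glia-rich wells (309 higher and 415 lower), and 0 to 9 when a mouse was left out. The count of listed genes whose groups did not overlap, 6 in the report, was 32 without glia-rich wells and 11 to 36 when a mouse was left out, where fewer mice are compared. The cause of the other changes was not tested.

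The following turns are limited to fold changes beyond 1 standard error of 0 in the report. Of the named genes, 14 of 58 beyond it changed sign under some alternative, and 26 of 33 within it. Log2 fold changes that turned from below 0 to above it without glia-rich wells, and without these and RUVr factors, were those of Scn8a (0.10 and 0.11), Scn9a (0.13 and 0.16), Ngfr (0.0048 and 0.11), Junb (0.43 and 0.45) and Map3k12 (0.62 and 0.61). The difference of Junb in log2(CPM + 1) turned to 0.36 without glia-rich wells. Without RUVr factors, and with only the 8 SNI mice and no RUVr factors, those of Fos (0.43 and 0.50), Egr1 (0.25 and 0.33) and Ddit3 (0.26 and 0.29) turned. Ddit3 (0.058) and Top2a (0.022) turned with the set as a covariate in place of RUVr factors, and Trib3 (0.48) with a replicate block without RUVr factors. When a mouse was left out, the fold change ranged from -1.73 to 0.26 for Scn8a, -1.71 to 0.28 for Scn9a, -1.57 to 0.21 for Ngfr, -0.15 to 0.76 for Scd2 and -1.36 to 0.10 for Map3k12, each turning without SNI 3d mouse 3. It ranged from -4.92 to 3.64 for Trib3, -8.08 to 2.40 for Mki67 and -20.98 to 1.42 for P2ry10, each turning without SNI 1d mouse 3. The cause was not tested.

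For the 91 named genes, 1180 of 1261 values under the other alternatives, and 706 of 728 with a mouse left out, kept their direction and side of the threshold or moved by less than the spread between mice. For single values this held for 857 of 861, and for list medians for 271 of 308. Deviations of SNI 1d and SNI 3d mice of the same set and number correlated at 0.048 to 0.158 across genes, which are not independent replicates, and the mice were not treated as pairs.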
